A study of Schizosaccharomyces pombe with 24 samples.

Results

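The genes described here are the fission yeast protein-coding genes whose product description says that the protein is specific to the genus Schizosaccharomyces or to the species S. pombe. Of 6987 annotated rows, 5126 were protein coding and 256 of these carried such a description. A level limit of 300 in at least 1 of the 8 group averages left 185, and 34 of them were set aside because they are adg1, have a name starting with mug, meu, mde or spo, or have a systematic ID from a set of excluded, mostly subtelomeric, gene groups. The remaining 151 genes are the members. The claim of lineage specificity rests on the product text, no sequence comparison was made here, and the averages used here cannot test that text.

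Genes that lack recognizable relatives outside 1 lineage are often called orphan or lineage-specific genes. Their proteins are frequently short and few have a known function. Pho7 is a zinc-cluster transcription factor that S. pombe needs for full expression of phosphate acquisition genes such as pho1 (a cell surface acid phosphatase) and pho84 (a phosphate transporter). Cells deprived of phosphate divide a few more times and then enter quiescence.

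Poly(A)+ RNA was sequenced from 24 cultures in 8 groups, with 3 biological replicates in each. WT 0 h was strain AGP72 (h-) and pho7Δ 0 h was strain AGP83 (h- pho7Δ::natMX), both taken from log-phase cultures in YES, which is a rich, yeast extract-based medium. The other 6 groups were the same pho7Δ strain moved to ePMGT without phosphate, a defined medium, and harvested after 4, 8, 12 or 24 h, or after 36 or 48 h. All of these strains carry mutant alleles of leu1, ura4, his3 and ade6. No starved WT group was analysed here, and the starved groups differ from both 0 h groups in medium as well as in phosphate, so that the effects of the medium and of phosphate cannot be told apart. Each gene had 1 value per group, the authors' mean of normalized read counts, without a replicate SD. All differences below are therefore ratios of 2 averages with no replicate error and no test. A ratio was called higher or lower when it reached 2-fold, with 1 added to both averages, and the larger average was at least 100. Changes over the starved course needed this in the same direction at 2 or more consecutive times. In bulk RNA, fewer expressing cells and less RNA per cell cannot be told apart.

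The averages summed to between 16621900 and 18645900 per group, which is a normalized total and not a sequencing depth. pho7 itself averaged 3147 in WT 0 h, 833 in pho7Δ 0 h and 334 in pho7Δ at 48 h, so the deleted gene was reduced but not at 0, and which part of the gene those reads cover was not tested. ura4 was listed at 0 in all 8 groups. pho84 went from 1313 in pho7Δ 0 h to 69715 at 48 h. Among mating-type markers, mat1-Mc was at 0 in all groups, and the others went both ways between WT and pho7Δ 0 h. Of the M cell genes, mam2 went from 3170.4 to 376 and mfm3 from 132 to 37.1, while mam1 went from 1166 to 1664, mfm1 from 11.7 to 90.6 and mfm2 from 569 to 1576. Of the P cell genes, map1 went from 591 to 337 and map2 from 2079 to 275, while map3 went from 185 to 313. Both strains are labelled h-, and the part of these markers in the results below was not tested.

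In WT 0 h the members ranged from 62.6 to 67089 average counts per kb of annotated exon. Their median of 736 per kb lay below the median of 903 per kb of the other 4659 protein-coding genes at the same level limit. Not corrected for length, the median average in WT was 788 for the members and 1662 for those other genes. Calls were made on such averages, and beyond the level limits the comparisons below were not matched for level. The 5 highest members per kb in WT were the following. SPAPB24D3.07c had 67089 per kb, the second highest of all rows with a length. SPAPB18E9.05c had 10852, SPAC8C9.04 had 9706, SPCC1235.01 had 8768 and tam11 had 5609 per kb. No molecular function of these 5 proteins is given by the annotation. The top of the order was different at 48 h, when SPCC569.09 ranked 5 and SPCC1235.01 ranked 7 among all rows per kb, while SPAPB24D3.07c had dropped to rank 1170.

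The members were short. The 150 that could be matched to a reference annotation encoded 32 to 952 residues, with a median of 172, and the other protein-coding genes had a median of 394.5. For 47 members the highest of the 8 averages was less than 2-fold above the lowest. For 44 (29.1%) it was 4-fold or more above it, against 15.6% of all 4810 protein-coding genes at the level limit. That limit uses the same averages, and of the 18 members under it in both 0 h groups 10 (55.6%) reached 4-fold. Among genes at the limit in either 0 h group, 34 of 133 members (25.6%) and 13.9% of all 4663 did. Of the 101 members at the limit in every average 21.8% did, without a matching share of all genes. Of all members, SPBC651.07 varied least, with a ratio of 1.12, and SPBC1271.08c most, with a ratio of 43.2.

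The first comparison asks what loss of Pho7 did to the members while phosphate was plentiful. In pho7Δ 0 h, 18 members (11.9%) were higher and 17 (11.3%) lower than in WT 0 h. Of all 4810 protein-coding genes at the level limit, 7.65% were higher and 7.03% lower. The median log2 ratio of the members was -0.05, against 0.10 for all 4810, so the 151 together did not shift far in either direction.

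Increases at 0 h were modest. SPBPB7E8.01, a protein predicted to carry a GPI anchor, averaged 941 in WT and 5066 in pho7Δ, 5.38-fold higher. SPCC1393.12 averaged 620.4 and 2610.3, a 4.2-fold increase. These were the 2 members raised by 4-fold or more. SPAC11D3.16c went from 569.9 to 1784 (3.13-fold). SPCC1795.12c went from 283 to 858 (3.02-fold). The remaining pair of the 6 largest increases differed in level, SPAC922.04 going from 3636 to 10701 (2.94-fold) and SPBP4H10.14c from 1229 to 3502 (2.85-fold). The other 12 increases were smaller, down to 2.05-fold.

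Decreases at 0 h were steeper. SPAPJ695.02 went from 714 in WT to 15.8 in pho7Δ, 42.5-fold lower (log2 -5.41). SPCC584.16c went from 3234 to 221, 14.6-fold lower. SPBC8E4.02c went from 1521 to 210.2, 7.21-fold lower. Its systematic ID is the one after that of pho84, and pho84 itself averaged 3790.1 and 1313 in the same groups. SPAPB24D3.07c, the member with the most reads in WT, went from 87216 to 18853, 4.63-fold lower. new12 averaged 322 and 86.2 (3.7-fold lower), and SPAC8C9.04 averaged 24897 and 7244 (3.44-fold lower). The other 11 decreases were smaller, down to 2.02-fold.

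**Figure D1:**
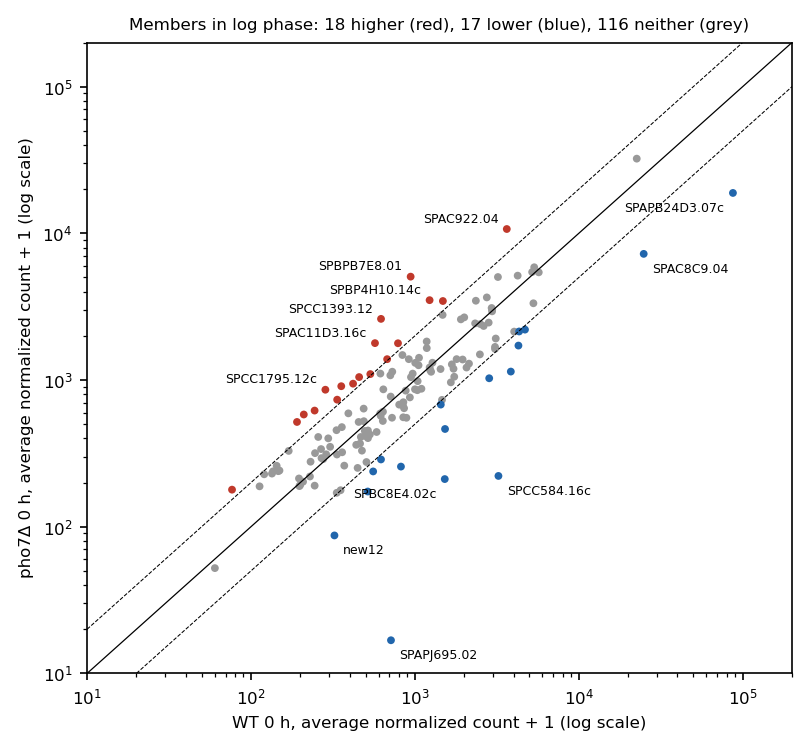
Average normalized count plus 1 of the 151 members in pho7Δ 0 h (vertical, log scale) against WT 0 h (horizontal, log scale), 1 point per gene, with the line of equality solid and the 2-fold lines dashed. The 18 higher members (red) lie close above the upper dashed line, and SPAPJ695.02 and SPCC584.16c lie far below the lower one.

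The neighbours of the 2 steepest decreases differed in their response. SPAPJ695.02 lies next to SPAC977.17, a predicted water channel, which went from 2263 in WT to 997 in pho7Δ 0 h, and next to SPAPJ695.01c, a UPF0321 family gene with 24.5 and 2.73. Beside SPCC584.16c, SPCC584.15c, an arrestin gene, fell from 6898 to 2869, while met10, a sulfite reductase subunit gene on its other side, went from 3976 to 6574, under 2-fold. Both neighbours of SPBPB7E8.01 were called higher, zfs1 with 3097 and 6714 and SPBPB7E8.02 with 699 and 1532. Next to SPCC1393.12, SPCC1393.13 was called higher (288 and 719) and mrpl20 was not (885 and 838). No neighbour of the other named increases was called higher, and SPAC922.09, beside SPAC922.04, was called lower.

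The second comparison follows the pho7Δ strain through 48 h without phosphate, each time against pho7Δ 0 h. Over the course 42 members (27.8%) rose, 18 (11.9%) fell, none did both, and 91 did neither. For all 4810 protein-coding genes at the level limit 13.6% rose and 15.4% fell. The median of the members' own course medians was 0.19 on the log2 scale, and that of all 4810 genes was -0.09. Because the level limit admits a gene that is high only when starved, the count was also taken without it. Of the 203 genes with the product text and no excluded name, at any level, 49 (24.1%) rose and 19 (9.36%) fell, against 13.6% and 14.7% of all 5126 protein-coding genes. There were 18 members under 300 in both 0 h groups, 13 of which rose and none of which fell. These 18 entered only through a starved average, so the limit itself favours rises among them. Of the 133 members at 300 or more in either 0 h group, 29 (21.8%) rose and 18 (13.5%) fell. Of all 4663 protein-coding genes at that level in either 0 h group, 11.5% rose and 15.9% fell.

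**Figure D2:**
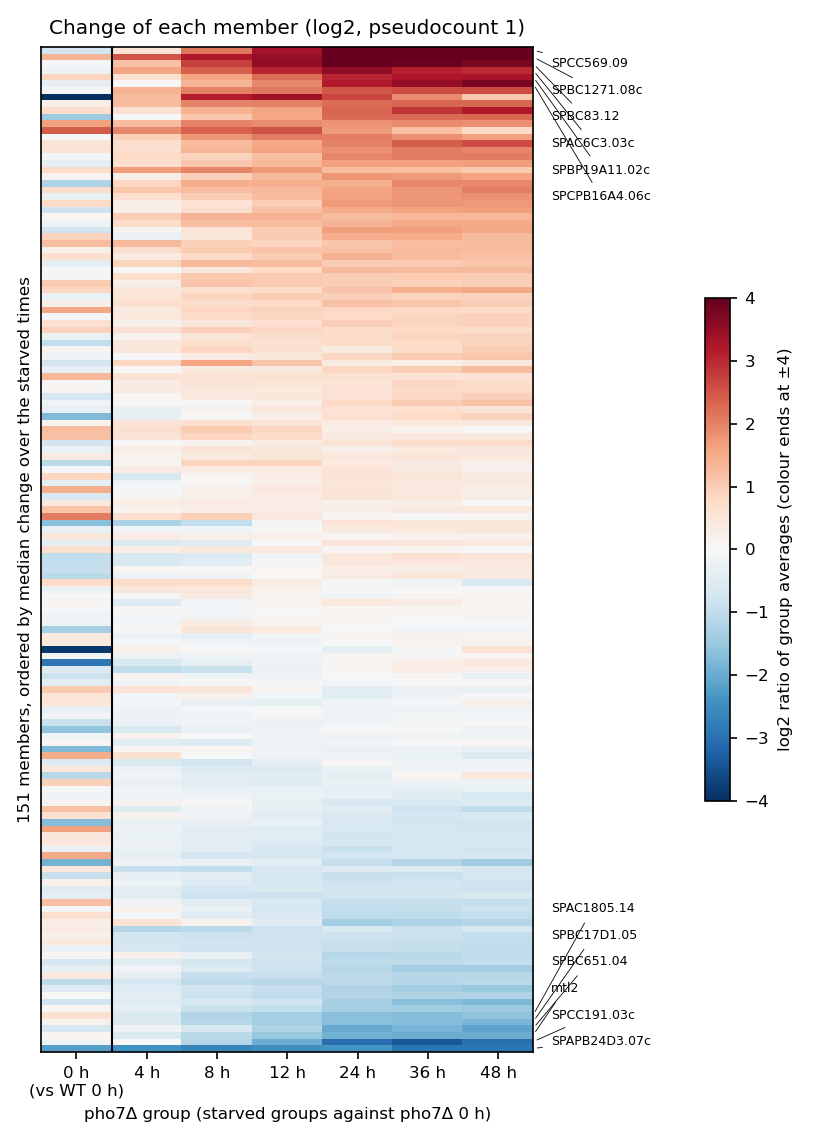
Log2 ratio of each of the 151 members, 1 row per gene ordered by its median over the starved times. The left column compares pho7Δ 0 h with WT 0 h and the other 6 columns compare pho7Δ at 4 to 48 h with pho7Δ 0 h, with red for higher and blue for lower averages. The 42 rises deepen from 8 h on and the 18 falls mostly appear at 24 h, and strong colours in the left column are spread over the whole order.

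Most of the calls came after 4 h. At 4 h 10 members (6.62%) were higher and 4 (2.65%) lower, beside 4.93% and 3.97% of the 4810 genes. At 8 h the members reached 29 higher (19.2%) and 7 lower (4.64%), beside 9.5% and 8.36%. At 12 h 34 were higher (22.5%) and 7 lower, beside 9.96% and 9.09%. The count of higher members then stayed at 37, 39 and 37 at 24, 36 and 48 h, and the lower ones numbered 17 at each of these times. At 48 h the shares of the members were 24.5% and 11.3%, beside 11.9% and 13.3% of the 4810 genes. For the 133 members they were 18.0% and 12.8%, beside 9.80% and 13.8% of the 4663 genes. Of the 42 rising members 10 passed the limits at 4 h for the first time, 19 at 8 h, 6 at 12 h, 4 at 24 h and 3 at 36 h. The shares at 4 and 8 h were 23.8% and 45.2%, beside 32.6% and 32.0% of the 654 rising genes among the 4810. Of the 18 falling members 10 (55.6%) passed them only from 24 h, beside 29.1% of all 743 falling genes that first passed at 24 h and 7.40% at 36 h.

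**Figure D3:**
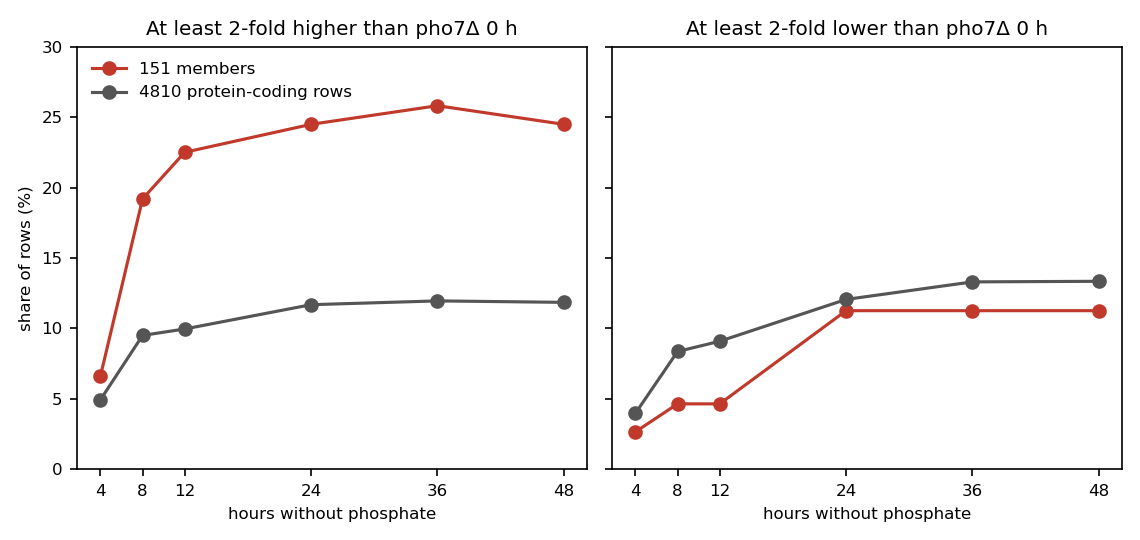
Share of the 151 members (red) and of all 4810 protein-coding genes at the level limit (grey) at least 2-fold higher (left) or lower (right) than in pho7Δ 0 h, in percent, by hours without phosphate. From 8 h on the members' higher share lies at about 19% to 26% and that of all genes at 9.5% to 12.0%. The members' lower share stays under that of all genes at every time. The limit bears on this, since members under it in both 0 h groups were never called lower. Among genes at the limit in either 0 h group, 12.8% of members and 12.4% of all genes were lower at 24 h. At the other times the members' lower share was the smaller there too.

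The largest rise was that of SPCC569.09, a gene for a 99-residue protein. It averaged 1737 in WT, 1052 in pho7Δ 0 h, and 1532, 4591, 10630.3, 35135, 42849.7 and 44346 at the 6 starved times in order. It was under 2-fold at 4 h and had most of its 48 h level by 24 h, with a median of 18.4-fold over the 6 times. The gene lies beside ade5, a purine synthesis gene, and SPCC569.07, a predicted aromatic aminotransferase, neither of which passed the limits over the course.

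SPBC1271.08c rose earlier and was 5.68-fold above pho7Δ 0 h at 4 h. Its averages were 354 in WT, 906 in pho7Δ 0 h, and 5153, 8316, 10067, 15212, 15338 and 14579.6 at the starved times, a median increase of 13.4-fold. At 0 h it was already 2.55-fold above WT. It lies next to tgp1, which encodes a glycerophosphodiester transporter and is a known phosphate-responsive gene. tgp1 averaged 992 in WT, 366 in pho7Δ 0 h, and 7281, 11861, 9643, 7274, 9252 and 9931 over the course, so at 0 h the neighbours moved in opposite directions and under starvation both were raised from 4 h. On its other side SPBC1271.07c, a predicted N-acetyltransferase gene, averaged 5789 in WT, 1376 in pho7Δ 0 h, and 3111, 3429, 3563, 3354, 2788 and 2356 over the course, below WT at every starved time. An annotated antisense RNA covers 45.6% of SPBC1271.08c and also went up, from 231 at 0 h to 1652 at 48 h.

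A further 3 short genes and 1 predicted GPI-anchored protein complete the 6 largest rises. SPBC83.12 averaged 188 in pho7Δ 0 h and 421, 1253, 2212, 3520.3, 2889 and 2559 at 4 to 48 h, a median of 12.6-fold. SPAC6C3.03c, the lowest of the 6 in level, averaged 51.2 and then 156, 272, 426, 610.2, 453 and 412. Annotated antisense RNAs cover 91.7% of SPBC83.12 and all of SPAC6C3.03c, and these had 214 and 94.1 at 0 h and 283 and 206 at 48 h. SPBP19A11.02c, the predicted GPI-anchored protein, averaged 1105 and then 1675, 3305, 5231, 9157, 10312 and 10807. SPCPB16A4.06c averaged 368 and then 366, 947, 1402, 3317, 4193 and 5084. Both of the latter had their highest average at 48 h, and SPBC83.12 and SPAC6C3.03c had theirs at 24 h.

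SPCC1235.01, a 658-residue protein, had a smaller fold but the highest average of any member from pho7Δ 0 h on. It averaged 22579 in WT, 32295 in pho7Δ 0 h, and 52929, 77447, 93084, 126640, 171945 and 198436 at the 6 starved times. Each average was above the one before it. Among all 6987 rows its average, not corrected for length, ranked 85 in WT, 10 at 12 h, 3 at 24 h and 1 at 36 and 48 h. At 48 h it made up 1.18% of all normalized reads. An intergenic RNA row on the same strand, described as a possible alternative UTR, overlaps 15.2% of it and averaged 1352 at 0 h and 4568 at 48 h. The 151 members together took 1.32% of the normalized reads in pho7Δ 0 h and 2.94% at 48 h, with 1.91% in WT. Without SPCC1235.01 the shares were 1.14%, 1.76% and 1.78%, with the 48 h share no longer above that of WT. SPAPB24D3.07c alone made up 27.4% of the members' reads in WT. With SPCC1235.01, SPAPB24D3.07c and SPCC569.09 all left out, the shares were 1.03%, 1.48% and 1.24%, and the 48 h share was above that of WT.

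**Figure D4:**
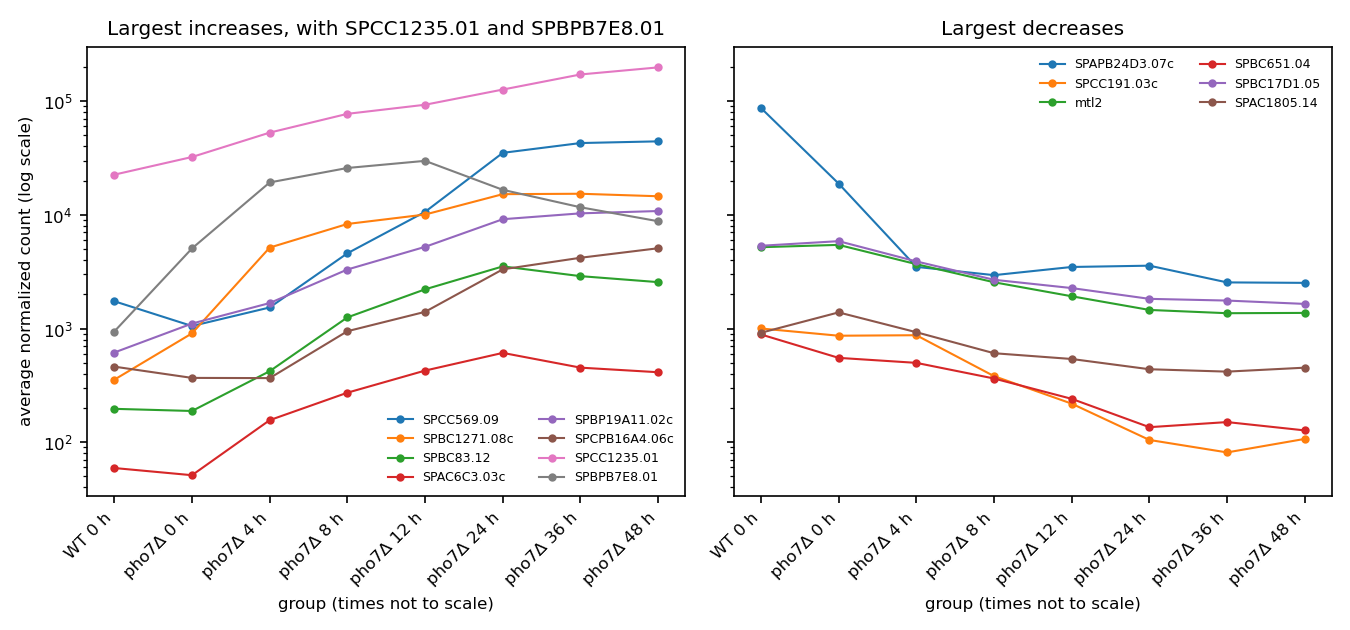
Group averages of normalized counts (vertical, log scale) for the 6 members with the largest median rise plus SPCC1235.01 and SPBPB7E8.01 (left), and for the 6 with the largest median fall (right), in the 8 groups in order of time, spacing not to scale. SPCC569.09 and SPCC1235.01 end at 44346 and 198436, SPBPB7E8.01 turns down after 12 h, and SPAPB24D3.07c drops from 87216 in WT to 3488 at 4 h.

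Most rises lasted. The highest starved average came at 48 h in 17 of the 42 rising members (40.5%), beside 39.6% of all 654 rising genes. By 48 h 3 of the 42 had dropped under 50% of their highest starved average, a count not made for all rising genes. SPBPB7E8.01, the predicted GPI-anchored protein that was already high in pho7Δ 0 h, averaged 19291, 25853, 29872, 16608, 11663 and 8788 at 4 to 48 h, with its top at 12 h. SPBC428.10, named here after its values were seen, averaged 1494 at 0 h and 2664, 4435, 3249, 1902, 1760.3 and 1996 at the starved times, with its top at 8 h. SPAPJ695.02 averaged 15.8 at 0 h and 39.3, 146, 169.9, 107, 60.9 and 34.4 after it. This last gene stayed below its WT level of 714 throughout, and its neighbour SPAPJ695.01c had 19, 100.1, 115, 109, 51 and 16.6 at the same times.

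Of the other members that were highest per kb in WT, SPAPB18E9.05c rose and SPAC8C9.04 and tam11 did not pass the limits. SPAPB18E9.05c, which lies beside the flocculin gene pfl2, averaged 3023 in pho7Δ 0 h and 5841, 10391, 12628, 12362, 10757 and 9421 over the course. SPAC8C9.04 averaged 7244 and then 7504, 7736, 6522, 6061, 6335 and 5798, with no call over the course. tam11, a 62-residue protein, averaged 2591 and then 3239, 3035, 2970.1, 2818, 2908 and 2949.9. SPAC11D3.16c, one of the 6 largest increases at 0 h, averaged 1784 and then 4193, 7081, 6686, 6267, 6673 and 6303, past the limits at all 6 starved times, and SPAC922.04 averaged 10701 and then 13845, 19286, 20236, 19044, 18544 and 17897, under 2-fold at each.

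The 18 falls were shallower than the rises, with 2 members at a median of 4-fold or more against 9 of the rising ones. The other 4659 protein-coding genes at the level limit were uneven in the same direction, so this was not particular to the members. Their course medians were -1.41 on the log2 scale at percentile 2 and 2.37 at percentile 98. SPAPB24D3.07c fell furthest, from 18853 in pho7Δ 0 h to 3488, 2948, 3479, 3572, 2545 and 2522, with a median of 5.89-fold, and it was the only member called lower at all 6 starved times. An antisense RNA row, SPNCRNA.865, covers the whole of it and averaged 931 in WT, 246 in pho7Δ 0 h, and 734, 1221, 1253, 1354, 1535 and 1654 at the starved times. Its averages were lowest at 0 h in pho7Δ and above WT at 48 h, while the member was lowest at 48 h.

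SPCC191.03c averaged 864 at 0 h and 873, 381, 218, 105, 81.2 and 107 after it, 5.63-fold lower at the median. Of its annotated length 83.0% overlaps acs1, an acetyl-CoA ligase gene on the same strand. acs1 averaged 5936 at 0 h and 6738, 3902, 2367, 1522, 1274 and 1302 over the course, so both of the overlapping genes were more than 2-fold lower from 12 h on, and reads in the shared stretch cannot be assigned from the averages. mtl2, a serine-rich cell surface sensor of cell wall integrity, overlapped no other annotated gene. It averaged 5193 in WT, 5444 in pho7Δ 0 h, and 3683, 2553, 1922, 1457, 1363 and 1372 over the course, 3.25-fold lower at the median with no call at 4 h.

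The next 3 falls were of similar size. SPBC651.04 averaged 552 at 0 h and 499, 363, 241, 135, 150.2 and 127 after it, and 48.6% of it overlaps dot2 (an ESCRT II subunit gene) on the opposite strand. SPBC17D1.05 averaged 5869.8 and then 3894, 2684, 2269, 1824, 1762 and 1646. SPAC1805.14 averaged 1386 and then 928, 606, 539, 438, 417 and 452. In all 3 the averages were lower at each time up to 24 h and differed little after it.

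The comparison that the study used sets the starved pho7Δ groups against WT 0 h. By the same course rule 46 members (30.5%) were higher than WT and 37 (24.5%) lower, against 19.8% and 19.7% of the 4810 genes. This comparison shares its starved averages with the one before. It holds both the change at 0 h and the change during starvation. At 48 h SPBC1271.08c was 41-fold, SPCC569.09 25.5-fold, SPBP19A11.02c 17.6-fold and SPCC1235.01 8.79-fold above WT. SPAPB24D3.07c was 34.6-fold, SPAPJ695.02 20.2-fold, new12 9.84-fold, SPCC584.16c 9.76-fold and SPBC8E4.02c 5.39-fold below it. SPCC584.16c and SPBC8E4.02c stayed near their pho7Δ 0 h averages, with 252, 223, 209, 171, 208 and 330.4 and 139, 159, 192, 216, 251 and 281 at the 6 times. new12 was lower at each time than at the one before, with 75.3, 70.4, 63.4, 45.1, 37.8 and 31.8, while an antisense RNA row over 99.2% of it averaged 7.82 at 0 h and 247 at 48 h.

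The last comparison asks what still changed late, from 8 to 48 h without phosphate. There 14 members (9.27%) were higher at 48 h and 9 (5.96%) lower, beside 4.66% and 3.83% of the 4810 genes. SPCC569.09 (9.66-fold), SPCPB16A4.06c (5.37-fold) and SPCC338.18 (3.52-fold) increased most. SPCC338.18 averaged 240.5 in pho7Δ 0 h and 369.9, 632, 727, 1204, 1744 and 2229.5 at the starved times, each above the one before. It lies beside gdh2, the gene for an NAD-dependent glutamate dehydrogenase. SPAPJ695.02 (4.14-fold), SPCC191.03c (3.54-fold) and SPBPB7E8.01 (2.94-fold) decreased most.

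Members described as specific to S. pombe itself had a wider range over the 8 groups than those shared by the genus. The median ratio of the highest to the lowest average was 4.23 and 2.37, beside 2.12 for the 4810 genes. Of the 41 S. pombe-specific members 18 (43.9%) rose over the course and 4 (9.76%) fell, while of the 110 genus-specific members 24 (21.8%) rose and 14 (12.7%) fell. Of the 4810 genes 13.6% rose and 15.4% fell. The medians of their course medians were 0.63 and 0.09 on the log2 scale. At 0 h 9 of the 41 (21.95%) and 8 of the 110 (7.27%) were lower in pho7Δ than in WT, beside 7.03% of the 4810 genes, and 4 (9.76%) and 14 (12.7%) were higher, beside 7.65%. The level limit bears on this contrast, since 12 of the 41 and 6 of the 110 were under 300 in both 0 h groups. Without the limit, 23 of 79 S. pombe-specific genes (29.1%) and 26 of 124 genus-specific genes (21.0%) rose, beside 13.6% of all 5126 protein-coding genes. Among members that overlap no other annotated gene, 9 of 15 and 13 of 53 rose, without a matching share of all genes free of overlap. The difference between these descriptions was not tested.

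**Figure D5:**
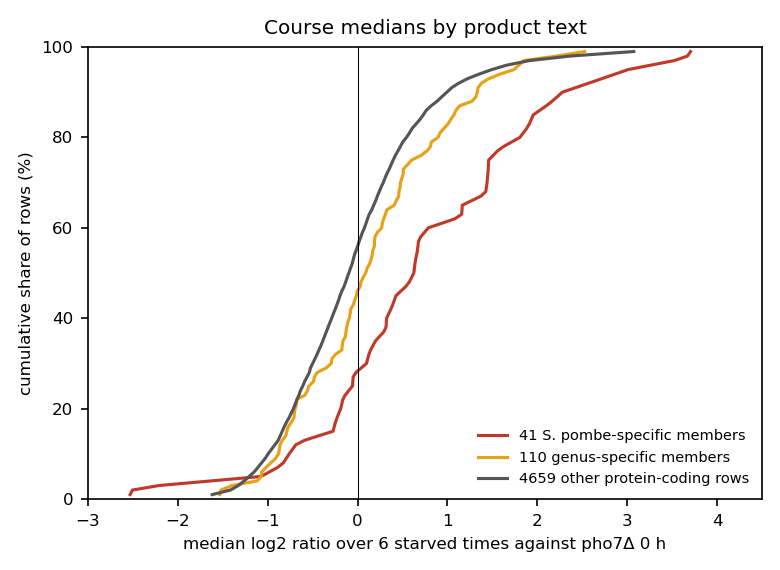
Cumulative share (percent) of the 41 S. pombe-specific members (red), the 110 genus-specific members (orange) and the 4659 other protein-coding genes at the level limit (grey) by median log2 ratio over the 6 starved times against pho7Δ 0 h. The red curve lies to the right of the others over most of its length, with medians of 0.63, 0.09 and -0.10.

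The deposited product text names a membrane, the cell surface or a GPI anchor for 7 members. mtl2, which fell, is a surface sensor by background knowledge but not by that text, and is not among them. Only the predicted GPI-anchored proteins SPBPB7E8.01 and SPBP19A11.02c rose over the course, and the other 5 passed the limits in neither direction. The other 2 predicted GPI-anchored proteins were SPBC215.13, with 3471 at 0 h and 3428 at 48 h, and SPCC24B10.06, with 2673 and 1346. SPAPB18E9.04c, a possible cell surface glycoprotein, averaged 4696 in WT, 2205 in pho7Δ 0 h, and 2354, 4099, 4113, 2915, 2832 and 2599 over the course. The 2 members of multicopy membrane protein family 1, SPCC61.05 and SPCC569.06, may share reads with other copies, so their values are uncertain. SPCC61.05 averaged 534, 1097 and 898 in WT, pho7Δ 0 h and at 48 h, and SPCC569.06 averaged 1476, 2778 and 4653.

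A gene name was given to 11 members. Besides mtl2, 2 of them passed the limits over the course. mcp3, the longest member with 952 residues, averaged 189 in pho7Δ 0 h and 303, 397, 478, 588, 577 and 603 after it, and an annotated antisense RNA covers 87.5% of the gene. tam12 averaged 349 and then 569.6, 721, 764, 784, 853 and 846. The tam genes are named for transcripts altered in meiosis. Of the rest of them, tam13 was higher in pho7Δ than in WT at 0 h (788 and 1780.0) and averaged 2336 at 48 h, tam5 had 848, 556 and 682, and tam8 had 295, 399 and 402 in these groups. dbl7, described as localizing to DNA double-strand breaks, was among the steadiest members, with 618 in WT, 569 in pho7Δ 0 h, and 489, 499, 559, 513, 535 and 528 over the course. slt1 averaged 2819, 2463 and 2504, and new11 169, 328 and 284.

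Length and overlap with other genes were looked at because the members are short. Of the 25 members of 100 residues or fewer, 8 (32.0%) rose over the course, and of the 125 longer ones 34 (27.2%) did. Among the other protein-coding genes, 33 of 164 of 100 residues or fewer (20.1%) rose, beside 13.1% of all 4658 with a length. A gene on the opposite strand covered 50% or more of 34 members, of which 6 (17.6%) rose and 5 (14.7%) fell, beside 13.6% and 15.4% of the 4810 genes, and 68 members overlapped no other annotated gene, of which 22 (32.4%) rose and 5 (7.35%) fell. For the counting step, a strand setting was not given in the sources used here. Reads of a member and of its antisense partner may therefore not be separable, and the part of these properties in the rises was not tested.

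Among protein-coding genes 5 pairs of members were adjacent, and the number that random placement would give was not computed. In 1 pair, SPAC1F8.08 and SPAC11D3.19, both rose, from 452 to 970.0 and from 309.6 to 1285 between pho7Δ 0 h and 48 h. SPCPB16A4.06c rose beside SPCPB16A4.07, which averaged 943 at 0 h and 466 at 48 h. SPAPB18E9.05c and SPAPB18E9.04c, and SPCC24B10.03 and SPCC24B10.04, likewise had 1 rising gene each. In the pair SPBC18E5.14c and SPBC18E5.09c neither passed the limits. At the edge of membership, new12, new11 and SPAC25B8.20 had highest averages of 322, 328 and 332, and SPAC16E8.05c, SPAC110.05 and SPAC22G7.03, just outside, had 295, 289 and 251.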

How the data were processed

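The authors purified poly(A)+ RNA with a stranded kit, mapped paired reads with HISAT2 2.1.0, and counted reads over exons of the ASM294v2 annotation with HTSeq 0.10.0, and DESeq2 gave normalized counts. The deposited tables (7, each with 6987 rows) pair each gene with its product, with 2 group averages, and with the results of the authors' own comparisons (an overall mean, fold change, its error, statistic and p-values), which were not used. The averages are a signal on the deposited normalized scale, each the authors' mean of 3 replicates. No column held 1 library, so replicate spread and depth per library could not be computed from the values used, and no test was run. The design allowed for count tests on values per library, which these files did not hold. Ratios were log2 of averages with a pseudocount of 1, which understates the change of low genes, and calls needed 2-fold and an average of 100 in the higher group. Counts were set beside the 4810 protein-coding rows at the same limit of 300. Exon and coding lengths, overlaps and neighbours came from the RefSeq ASM294v3 annotation, matched by ID (6833 of 6987 rows, 150 of 151 members, all but SPBC8E4.02c). That build is not the authors', so no coordinates or sequences are given. Named members are the 6 largest changes in each direction at 0 h and by median over the course, the 3 largest each way from 8 to 48 h, the 5 highest per kb in WT, and those with a gene name. Other members named were chosen after their values were seen. The members and lists were chosen with earlier results of these data known. Python 3.11.15 with NumPy 2.4.6, pandas 2.3.3 and matplotlib 3.10.9 was used, and the call rules were tested on simulated averages. Pseudocounts, scalings, limits and overlap were varied.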

Additional observations from a re-analysis of the deposited data

How the results depend on the processing

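Counts of members past the limits were recomputed under other pseudocounts, scalings, minimum averages, fold limits, member limits, overlap and course rules. Of 112 recomputed counts 84 stayed within 1.5 times the reported one, among them all counts with a pseudocount of 0 or 20, with equal totals, with the median protein-coding ratio set to 0, and with a minimum average of 0 or 300. The balance of higher and lower members at 0 h still depended on the scaling. It was 15 and 24 with equal totals, and 16 and 22 with the median ratio at 0. The latter also gave 47 higher and 12 lower over the course against pho7Δ 0 h. With a fold limit of 1.5 the members higher and lower numbered 36 and 34 at 0 h and 37 and 21 from 8 to 48 h, and 39 were lower over the course against pho7Δ 0 h. With a fold limit of 4 they numbered 2 and 4 at 0 h, 15 and 2 over the course against pho7Δ 0 h, 24 and 11 against WT, and 2 and 1 from 8 to 48 h. A member limit of 1000, which left 91 members, gave 11 higher and 11 lower at 0 h, 30 higher against WT over the course, and 9 higher from 8 to 48 h. The 68 members free of overlap gave 5 lower at 0 h, 22 higher and 5 lower over the course, 25 and 13 against WT, and 8 and 2 from 8 to 48 h. These 2 settings hold fewer genes. No share of all protein-coding genes is set beside the counts for the 2 fold limits, the member limit of 1000 or overlap. How the members compare with all genes under these settings is therefore not shown. Required at all 6 starved times, 8 were higher and 1 lower against pho7Δ 0 h, beside 144 and 60 of all 4810 genes, and 27 and 14 against WT. Added after seeing the data, no member limit (203 genes) and a mean of 300 over the 8 averages (139 genes) kept every count within 1.5 times. With the mean limit 29.5% of the members rose and 12.2% fell over the course against pho7Δ 0 h. Of the 4702 protein-coding genes with such a mean, 13.3% rose and 15.4% fell. Of 324 recomputed log2 values of named members 1 crossed the 2-fold limit, that of new12 from 8 to 48 h, -0.80 with a pseudocount of 20. The median log2 of the members at 0 h was -0.05, and -0.19 with equal totals and -0.15 with the median ratio at 0. That of all 4810 genes moved from 0.10 to -0.04 and 0.00, so the members' median stayed below it under each scaling. No paired analysis was possible because the deposited averages carry no replicate, and leaving out replicates was not run for the same reason. No change of any size was set against replicate spread.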

Other observations

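The 34 genes set aside by name or ID carry the same product text. They rose over the course and were lower at 0 h more often than the members. They fell over the course and were higher at 0 h less often. Over the course against pho7Δ 0 h 16 of the 34 (47.1%) rose and 3 (8.82%) fell, beside 13.6% and 15.4% of the 4810 genes. At 0 h 3 (8.82%) were higher and 10 (29.4%) lower than WT, beside 7.65% and 7.03%. Most are mug or meu genes, named for transcripts raised in meiosis. Their summed averages went from 0.105% of all normalized reads in pho7Δ 0 h to 0.333% at 48 h. The 52 genes under the level limit without an excluded name were low, with a median average of 20.8 in pho7Δ 0 h and 34.8 at 48 h. Of these 52, 7 (13.5%) rose and 1 (1.92%) fell, beside 13.6% and 14.7% of all 5126 protein-coding genes at any level. Genes of unknown role at the level limit, taken as those whose product text starts with conserved and ends in protein, numbered 19. Of these, 4 (21.1%) rose and 3 (15.8%) fell over the course, beside 13.6% and 15.4% of the 4810 genes.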
